A study of Homo sapiens with 8 samples.

Results

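The snoRNA host noncoding genes were followed in the D283 Med medulloblastoma line upon inhibition of MYC. They were taken by symbol, as every gene that GENCODE 29 names SNHG followed by a number, GAS5, ZFAS1, EPB41L4A-AS1, TAF1D or CCDC26 and does not class as protein-coding. This gave 28 genes of the 60668 gene rows in each library. TAF1D and a second entry named SNHG28 were left out as protein-coding. Of the 28 genes, 23 passed the filter on low counts, more than 1 CPM (a count scaled to library size) in at least 4 of the 8 libraries, among 15222 genes tested.

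RNA from 2 groups of cells was sequenced, with 4 independent biological replicates in each. Both groups carried the same construct, an OMOMYC gene under doxycycline (DOX) control, delivered by a lentivirus and kept by hygromycin selection. OMOMYC is a dominant-negative mini-protein derived from MYC. The OMO group was untreated, and the OMO+DOX group was treated with DOX for 72 h. No library of parental cells with DOX was analysed here, so the effects of OMOMYC and of DOX itself cannot be told apart. The libraries were made from polyA+ RNA.

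A snoRNA host gene is transcribed and spliced like other genes, but much of its use to the cell lies in its introns. Small nucleolar RNAs (snoRNAs) are trimmed out of the excised introns and join proteins to form snoRNPs. C/D box snoRNAs guide 2′-O-methylation of ribosomal RNA, H/ACA box snoRNAs guide its pseudouridylation, and the related scaRNAs act on spliceosomal RNAs in Cajal bodies. The spliced host transcript often has only short reading frames and is degraded by nonsense-mediated decay. Many hosts begin with a 5′ terminal pyrimidine tract, as the ribosomal protein genes do. PolyA+ sequencing counts mainly the spliced host transcript, not the snoRNA.

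The name of the group held for most of its genes but not for all. GENCODE 29 places a snoRNA or scaRNA gene on the same strand within the span of 25 of the 28. For GAS5 it places none, but RefSeq on GRCh38.p14 lists 11 snoRNAs in its span, 10 SNORD and 1 SNORA. No snoRNA was found by either annotation in SNHG27 or CCDC26. CCDC26 is a long noncoding gene that is not known as a snoRNA host, and it is kept here by its symbol alone.

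Some snoRNAs of SNHG16, SNHG1 and ZFAS1, the C/D box hosts that fell most with DOX, are shown first, since snoRNAs are the product for which these genes are known. All 3 of SNHG16 are given, but only part of those of SNHG1 and ZFAS1. The sequences were copied from the GENCODE 29 transcripts on GRCh38 and written 5′ to 3′ as DNA. Capitals mark 5 letters of the C box (TGATG, or GATGA where TGATG is not found near the 5′ end) and the last CTGA, the D box.
SNORD1A in SNHG16, chr17:76561634-76561705 (+): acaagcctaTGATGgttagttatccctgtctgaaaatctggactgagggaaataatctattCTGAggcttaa
SNORD1B in SNHG16, chr17:76561109-76561192 (+): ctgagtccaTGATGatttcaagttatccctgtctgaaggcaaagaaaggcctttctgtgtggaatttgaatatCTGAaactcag
SNORD1C in SNHG16, chr17:76558791-76558868 (+): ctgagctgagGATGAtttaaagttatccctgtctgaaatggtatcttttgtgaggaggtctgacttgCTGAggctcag
SNORD25 in SNHG1, chr11:62855564-62855632 (-): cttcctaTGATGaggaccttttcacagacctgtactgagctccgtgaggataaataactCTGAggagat
SNORD27 in SNHG1, chr11:62855012-62855083 (-): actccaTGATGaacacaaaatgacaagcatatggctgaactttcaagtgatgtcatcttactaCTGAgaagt
SNORD12B in ZFAS1, chr20:49280319-49280409 (+): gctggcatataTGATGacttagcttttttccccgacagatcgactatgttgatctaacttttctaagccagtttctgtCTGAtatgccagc
The 3 SNORD1 copies of SNHG16 hold an identical run of 17 bases, AGTTATCCCTGTCTGAA, at positions 18 to 34 of SNORD1A and 21 to 37 of SNORD1B and SNORD1C, counted from the 5′ end. This run ends in a further CTGA and 1 more base. In C/D box snoRNAs the guide letters lie just before such a box.

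Library totals ranged from 38390649 to 54020451 counts. CPM values are scaled by TMM factors, which were 0.939 to 0.972 in untreated and 1.04 to 1.05 in DOX libraries and so moved with treatment. Floors of 3 counts came to at most 0.0746 CPM and cover counting error only. MYC itself was at 937 ± 75.5 CPM (SD, n = 4) in untreated and 1120 ± 56.6 CPM in DOX-treated cells, but reads of the OMOMYC transgene cannot be told apart from MYC here. The MYC targets CAD and NCL fell by 0.48 (SE 0.05) and 0.44 (SE 0.04) on the log2 scale. Of 8 genes that mark Group 3 medulloblastoma, 8 passed the filter. With DOX 6 were called lower, and MYC and EYS higher (log2FC 0.26 and 0.23). Over all genes tested 38.1% were lower and 38.5% higher. OTX2 went from 1046 to 509 CPM, and NRL, which fell most of the 8, from 28.6 to 2.44 CPM. No leukocyte marker of 4 and no astrocyte marker of 3 passed, and of 4 fibroblast markers only COL1A1 did, at 22.1 and 23.4 CPM. The other fibroblast markers were lower with DOX in their means, DCN at 0.599 and 0.0117 CPM, COL1A2 at 0.223 and 0.011 CPM and LUM at 0.0962 and 0.0173 CPM. The endothelial gene CDH5 was at 0 in untreated and 1.85 CPM in DOX-treated cells, and VWF at 3.25 and 1.24 CPM. The part of these changes in the results below was not tested.

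Upon DOX treatment most snoRNA host noncoding genes fell. Of the 23 tested, 19 were called lower, 2 higher and 2 neither way, by edgeR's quasi-likelihood test at a Benjamini-Hochberg adjusted p below 0.05 over all genes tested. In all genes tested 38.1% were called lower and 38.5% higher. The median log2 fold change (log2FC, DOX over untreated) was -0.60 over the 23 genes and 0.01 over all genes tested. In 18 of the 23 every DOX library lay below every untreated library, and in 2 every DOX library lay above, against 35.4% and 36.3% of all genes tested. A fall with a log2FC below -1 was called for 3 of the 23, against 9.81% of all genes, and a rise above 1 for none, against 11.0%. None passed the thresholds in the study's methods, an adjusted p below 0.001 with an absolute log2FC above 2, which 7.12% of all genes did. The study's results text gives an adjusted p below 0.01 instead, at the same log2FC, and no tested member reached that log2FC.

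Scaling by library size alone, without TMM factors, raised the log2FC of all genes by a median of 0.13 and turned the share of all genes called to 31.0% lower and 47.0% higher. Against the median of all genes, the members' median was -0.61 under either scaling, and 20 of 23 lay below it under both. Summed over the 28 genes, the level was 4713 ± 250.4 CPM (SD, n = 4) in untreated and 2892 ± 118 CPM in DOX-treated cells. The lowest untreated library stood at 4559 CPM and the highest DOX library at 2998 CPM. SNHG1 and SNHG16 together made up 1609 ± 70.8 CPM of the untreated and 559.8 ± 24.3 CPM of the DOX sum. In bulk RNA, fewer cells that express a gene and less RNA per cell cannot be told apart.

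**Figure D1:**
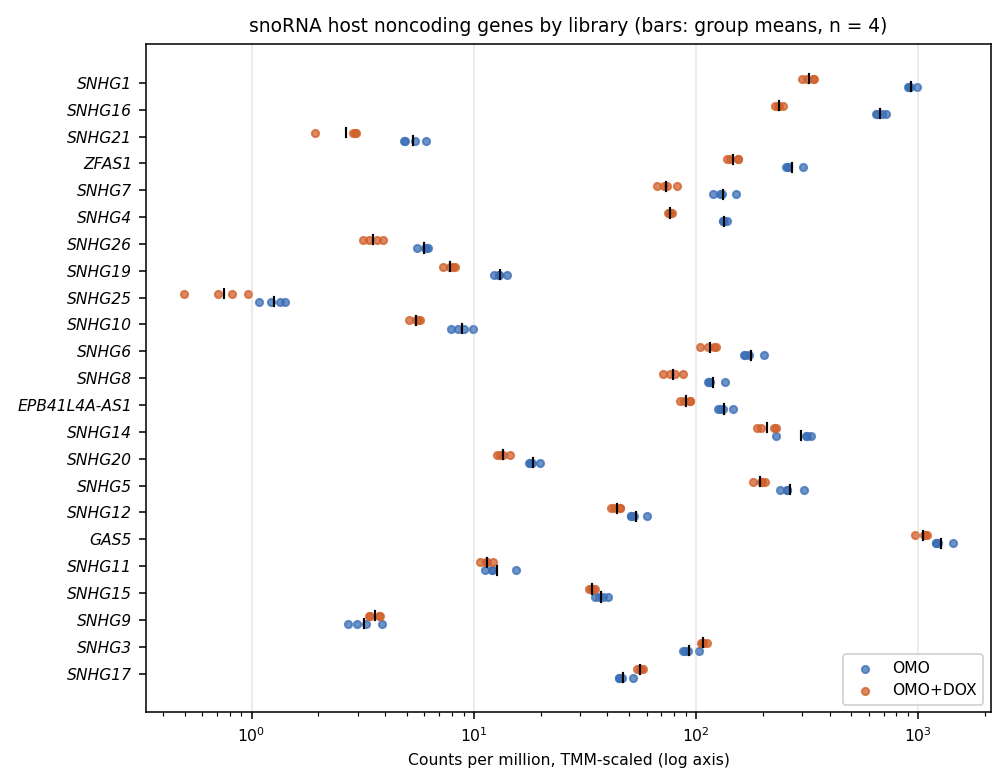
Level of each tested snoRNA host noncoding gene in every library, in TMM-scaled CPM on a log axis, with 4 untreated (blue) and 4 DOX-treated (orange) libraries and black bars at the group means. Genes are ordered by log2FC, and in 18 of the 23 all orange points lie left of all blue points.

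Untreated replicate 3 stood apart from the other libraries of its group. It held the highest untreated level for 21 of the 23 tested genes, the exceptions being SNHG4 and SNHG14. The share of all genes tested that were highest in this library was not counted. A trait of the members and a shift of the whole library thus cannot be told apart. Against TMM factors of 0.959 to 0.972 in the other untreated libraries, that of replicate 3 was lower, at 0.939. The summed level of the 77 cytosolic ribosomal protein genes was also highest there, at 134806 CPM against a highest value of 114915 CPM in the other 3 untreated libraries. Without it, 19 genes were called lower and 3 higher, and the median log2FC of the members was -0.55.

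SNHG1 and SNHG16, both hosts of C/D box snoRNAs, fell most. By GENCODE 29, SNHG1 (chr11:62851988-62855914, minus strand) hosts SNORD22, SNORD25 to SNORD28 and SNORD30, while RefSeq lists 9 snoRNAs in its span. Its level was 901, 920.1, 992 and 916 CPM in untreated replicates 1 to 4 and 301, 341, 316 and 337 CPM in the DOX replicates. The groups were far apart, with every DOX library at well under the lowest untreated level. The log2FC was -1.53 (SE 0.05, adjusted p 2.9e-10, edgeR), so that 34.7% of the untreated level remained. SNHG16 (chr17:76557766-76565348, plus strand), the host of the 3 SNORD1 copies printed above, was at 651, 689, 716 and 650.2 CPM without and 234, 236, 228 and 246 CPM with DOX. Its log2FC of -1.52 (SE 0.05, adjusted p 1.2e-10, edgeR) left 34.9% of the level. When each library was left out in turn, the log2FC of SNHG1 lay between -1.55 and -1.49 and that of SNHG16 between -1.55 and -1.49.

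The other hosts of C/D box snoRNAs fell less. Over the group of 9, 9 were called lower, beside 38.1% of all genes tested, with a median log2FC of -0.75. GAS5 was placed here because 10 of its 11 RefSeq snoRNAs are SNORD. Counted with the hosts of both classes instead, it left 8 of 8 C/D box hosts lower, at a median of -0.76. ZFAS1 (chr20:49278178-49295738, plus strand) runs antisense to the 5′ end of ZNFX1 and hosts SNORD12, SNORD12B and SNORD12C. It was at 261, 256, 305 and 261 CPM in untreated cells and 138, 154, 142 and 155 CPM upon DOX. The groups did not overlap, and its log2FC was -0.88 (SE 0.07, adjusted p 2.1e-07, edgeR). GAS5 (chr1:173863900-173868882, minus strand), named for its accumulation in growth-arrested cells, was the most abundant member. Its levels were 1205, 1212, 1435 and 1236 CPM without and 968, 1076, 1064 and 1100.1 CPM with DOX. Every DOX library was below every untreated one, but by little, and the log2FC was only -0.27 (SE 0.06, adjusted p 0.0022, edgeR). Without untreated replicate 3 it was -0.21, with an adjusted p of 6.0e-04.

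SNHG19, a short host of SNORD60, stood at 13.1 ± 0.761 CPM without and 7.85 ± 0.407 CPM with DOX (SD, n = 4), which is a log2FC of -0.75. SNHG26, the host of SNORD93, went from 5.98 ± 0.294 to 3.52 ± 0.324 CPM, a log2FC of -0.76. SNHG6, the host of SNORD87, fell by 0.61 on the log2 scale from 177 CPM. SNHG5, by GENCODE 29 the host of SNORD50B, fell by 0.44 from 266 CPM, and RefSeq lists 2 snoRNAs in its span. For these 4 genes no DOX library reached the untreated range.

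SNHG14 (chr15:24978583-25419462, plus strand) is the long imprinted transcript that holds the SNORD115 and SNORD116 clusters and extends antisense to UBE3A. It carries 84 of the 136 snoRNA genes within the members. Its level was 329, 314, 228 and 315 CPM in untreated and 226, 229, 197 and 188 CPM in DOX libraries. Untreated replicate 3 lay within the DOX range, so the groups overlapped, although the gene was called lower at a log2FC of -0.50 (SE 0.11, adjusted p 0.0013, edgeR). Without that library the log2FC was -0.61, with an adjusted p of 6.6e-07.

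**Figure D2:**
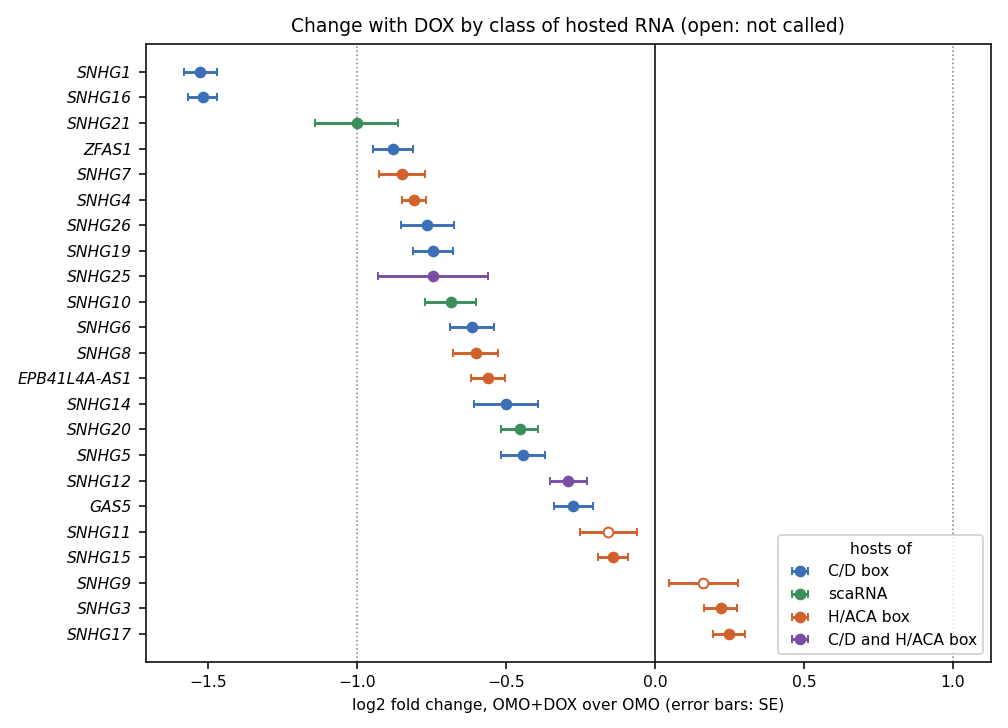
log2FC (DOX over untreated, points) with its SE (bars) for the 23 tested genes, coloured by the class of RNA they host; open points were not called at an adjusted p below 0.05, and dotted lines mark -1 and 1. The 9 blue C/D box hosts all lie below 0, and the 9 orange H/ACA box hosts run from -0.85 to 0.25.

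The hosts of H/ACA box snoRNAs were spread on both sides of no change. Of the 9 tested, 5 were called lower and 2 higher, with a median log2FC of -0.16. Over all genes tested 38.1% were lower and 38.5% higher. The difference between the classes was not tested. EPB41L4A-AS1 (chr5:112160526-112164276, plus strand), which hosts SNORA13 and lies antisense to EPB41L4A, was at 133, 126, 146 and 128 CPM in untreated libraries. The DOX libraries held 85.2, 94.1, 88.6 and 94.1 CPM, all below the untreated ones. Its log2FC was -0.56 (SE 0.06, adjusted p 3.2e-06, edgeR). SNHG7, the host of SNORA17A and SNORA17B, fell by 0.85 on the log2 scale from 133 ± 13.2 CPM. SNHG4, the host of SNORA74A and SNORA74D, fell by 0.81 from 134 ± 2.52 CPM, with the smallest SE of the 23 tested genes, 0.04. SNHG8, the host of SNORA24, fell by 0.60 from 120.0 ± 10.7 CPM.

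SNHG15, the host of SNORA9, changed little. It went from 37.5 ± 2.07 to 34.0 ± 0.918 CPM, and its log2FC was -0.14 (adjusted p 0.023, edgeR). The call was lost at a similar log2FC without untreated replicate 4 (-0.14, adjusted p 0.053), DOX replicate 1 (-0.14, adjusted p 0.058) or DOX replicate 2 (-0.13, adjusted p 0.053). Scaled by library size alone, the log2FC was -0.01 (adjusted p 0.78). SNHG3 and SNHG17 rose. SNHG3, the host of SNORA73A and SNORA73B, went from 92.9 ± 7.01 to 108 ± 3.02 CPM, a log2FC of 0.22 (SE 0.06, adjusted p 0.0036, edgeR). SNHG17, the host of SNORA71A to SNORA71D, went from 47.3 ± 3.35 to 56.1 ± 1.39 CPM, a log2FC of 0.25 (SE 0.05, adjusted p 0.0013). In both, every DOX library lay above every untreated library.

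SNHG11, the host of SNORA60 and SNORA71E, was at 12.8 ± 1.90 and 11.4 ± 0.65 CPM, and SNHG9, the host of SNORA78, at 3.20 ± 0.488 and 3.59 ± 0.223 CPM. Neither was called, with adjusted p of 0.16 and 0.22, and their groups overlapped. SNHG9 was called higher without untreated replicate 3 (log2FC 0.26, adjusted p 0.039) and with library-size scaling (log2FC 0.29, adjusted p 0.031).

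SNHG12 and SNHG25 host snoRNAs of both classes by GENCODE 29. SNHG12 holds SNORD99 beside SNORA16A, SNORA44 and SNORA61 and fell by 0.29 on the log2 scale from 53.8 ± 4.53 CPM. SNHG25, with SNORD104 and SNORA50C, fell by 0.74 (SE 0.18) from only 1.27 ± 0.148 CPM, between 20 and 70 counts per library. It exceeded 1 CPM in 4 untreated libraries but in 1 DOX library, so it passed the filter through the untreated group, in which it was higher. Among the 22 members above 1 CPM in all 8 libraries, 18 were called lower and 2 higher.

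All 3 tested hosts of scaRNAs were called lower, beside 38.1% of all genes tested. SNHG21, the host of SCARNA15, was low, at 4.87, 4.90, 6.10 and 5.43 CPM in untreated and 1.93, 2.93, 2.87 and 2.94 CPM in DOX libraries. The groups did not overlap, and 50.1% of the untreated level remained (SE 0.14 on the log2 scale, adjusted p 4.1e-05, edgeR). DOX replicate 1 was the lowest, and without it the log2FC was -0.87, under a 2-fold fall. Without untreated replicate 3 it was -0.93. SNHG10, the host of SCARNA13, fell by 0.69 on the log2 scale from 8.85 ± 0.890 CPM. SNHG20, the host of SCARNA16, fell by 0.45 from 18.5 ± 1.01 CPM.

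The other 5 members did not pass the filter and have no adjusted p of the test above. SNHG18 had no count in any library, which allows at most 3 counts per library, and SNHG27 had 1 count in all. SNHG28 had 3 counts over the untreated and 12 over the DOX libraries, a ratio of 4.15 with an exact 95% interval from 1.12 to 22.9 for counting error only. DOX replicate 1 held 8 of the 12, and without it the ratio was 1.90 (0.321 to 13.0). The gene was not called in the fit without a filter (adjusted p 0.14, edgeR). Its span lies on the same strand as the protein-coding entry of the same symbol. SNHG22, the host of SCARNA17, held 0.896, 0.734, 0.811 and 0.917 CPM without and 0.708, 0.249, 0.663 and 0.593 CPM with DOX. CCDC26 was near the floor without DOX, at 0.041, 0.039, 0.020 and 0.089 CPM, and at 0.295, 0.398, 0.351 and 0.351 CPM with DOX. Its 9 untreated and 65 DOX counts give a ratio of 7.49 (3.71 to 17.1, exact 95% interval for counting error only). When no filter was set, over 36881 genes, CCDC26 was called higher (adjusted p 3.5e-06) and SNHG22 lower (adjusted p 0.048, edgeR).

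The members differed over orders of magnitude in level. Per kilobase of annotated exons, untreated GAS5 was highest at 350.3 ± 30.2 CPM per kb, followed by SNHG1 at 248 ± 10.9 CPM per kb, and the ranges of these 2 genes did not overlap. SNHG6, SNHG8, SNHG16 and ZFAS1 came next, at 142, 130.0, 126 and 121 CPM per kb, and each overlapped the next in this order. SNHG5 followed at 94.7 CPM per kb, below the range of ZFAS1. At the low end of the tested genes, SNHG20 stood at 3.04 and SNHG26 at 2.28 CPM per kb. In DOX-treated cells GAS5 stayed first at 289.8 CPM per kb, but SNHG6 (92.6), SNHG1 (86.2) and SNHG8 (85.7 CPM per kb) now overlapped from one to the next. SNHG16 was below SNHG5 and ZFAS1 there, at 44.1 CPM per kb. These levels depend on the length used. With the longest transcript instead of all exons, untreated GAS5 was at 749 and SNHG1 at 337 CPM per kb, still first in order. SNHG5 then came before ZFAS1, SNHG16 and SNHG8, at 258 against 252, 188 and 179 CPM per kb. At the low end SNHG25 (4.55) and SNHG11 (4.81) then stood below SNHG26 (5.40) and SNHG20 (5.66 CPM per kb).

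Genes that host snoRNAs in other annotation classes moved in both directions. Of 274 protein-coding hosts 242 were tested, of which 113 were called lower and 75 higher, with a median log2FC of -0.10. These are 46.7% lower and 31.0% higher, beside 38.1% and 38.5% over all genes tested. Restricted to hosts of a snoRNA with a SNORD, SNORA or SCARNA symbol, 84 of 157 were lower and 39 higher, at a median of -0.17. The largest falls were RAMP1, KCNC4 and EDA (log2FC -2.68, -2.19 and -2.03), and the largest rises SLC2A13, MCF2 and SIPA1L1 (3.47, 2.70 and 2.60). TAF1D, left out as protein-coding, was just called lower, with a log2FC of -0.14 and an adjusted p of 0.0498. Of 65 other noncoding hosts 20 were tested, with 7 lower (35%) and 8 higher (40%), near the shares over all genes tested. Among those called, LINC00856, AC105339.2 and AC097376.2 fell most (-3.53, -1.01 and -1.01), and TMEM161B-AS1, ULK4P3 and AC019080.1 rose most (1.41, 1.04 and 0.92). PWAR5 had a log2FC of -1.67 but was not called (adjusted p 0.0505). DANCR, a host outside the symbol rule, rose by 0.62. LRRC75A-AS1 and LINC02001, which newer annotation names SNHG29 and SNHG30, were lower at -0.48 and -0.40. No test compares these lists with the members.

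**Figure D3:**
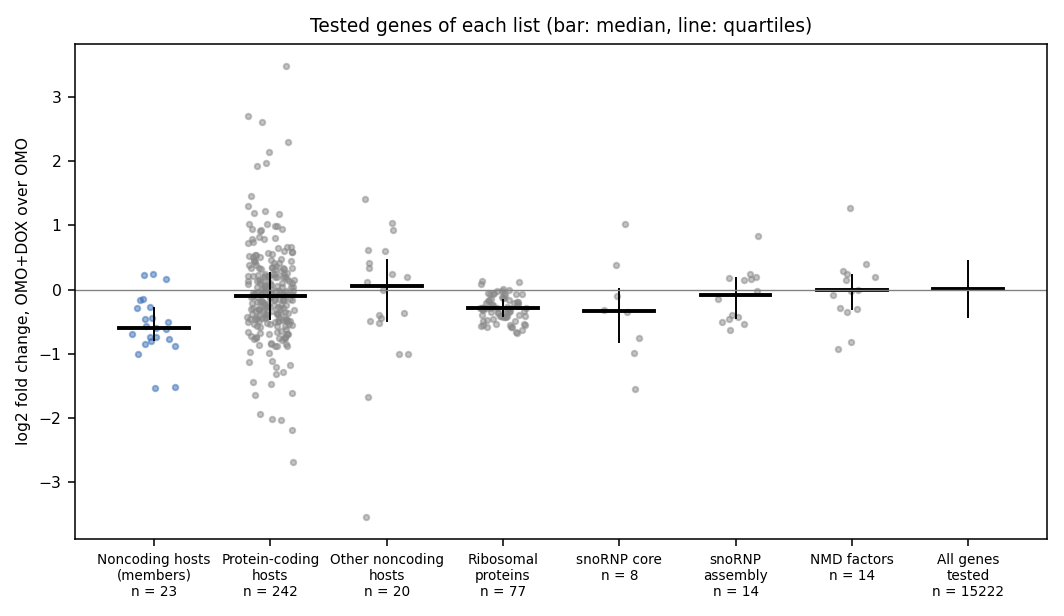
log2FC (DOX over untreated) of the tested genes of each list, 1 point per gene, with the median as a thick bar and the quartiles as a thin line; for all 15222 genes only the median and quartiles are drawn. The members' median is -0.60 and that of all genes 0.01.

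The proteins that act on the hosted RNAs did not move as a block. Of 8 core snoRNP proteins 5 were lower, 2 higher and 1 not called, beside 38.1% lower and 38.5% higher over all genes tested. FBL, the methyltransferase of C/D box snoRNPs, fell by 1.55 (SE 0.08) on the log2 scale from 333 CPM, DKC1, the pseudouridine synthase of H/ACA box snoRNPs, by 0.99 from 169 CPM, and NOP58 by 0.75 from 169 CPM. NOP56, the partner of NOP58, rose by 1.02 (SE 0.07) from 386 to 781 CPM, and NOP10 rose by 0.38. NOP56, NOP58 and DKC1 are themselves hosts of snoRNAs. Of 14 assembly factors 7 were lower and 6 higher. RUVBL1, NOLC1 and ZNHIT3 fell most (log2FC -0.63, -0.53 and -0.51), and ZNHIT6, RPAP3 and PHAX rose most (0.84, 0.25 and 0.19). Of 4 processing enzymes EXOSC10 (-0.55), PARN (-0.52) and XRN2 (-0.40) were lower, and DBR1, the lariat debranching enzyme, was higher (0.12).

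Of 14 factors of nonsense-mediated decay, which degrades many spliced host transcripts, 5 were lower, 5 higher and 4 not called. Each direction held 35.7% of the 14, near the 38.1% lower and 38.5% higher over all genes tested. UPF3B, MAGOH and SMG9 fell most (-0.92, -0.82 and -0.35). UPF1, the central helicase of the pathway, rose from 99.8 ± 2.80 to 241 ± 11.6 CPM, a log2FC of 1.27 (SE 0.05), followed by SMG5 (0.39) and UPF3A (0.28). Of 77 cytosolic ribosomal protein genes, which share the pyrimidine start with many hosts, 57 were lower and none higher, with a median log2FC of -0.29. RPLP0, RPL39 and RPS24 fell most (-0.68, -0.65 and -0.63). The summed ribosomal protein level was 117532 ± 12024 CPM in untreated and 94987 ± 5024 CPM in DOX-treated cells.

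Many of these host genes share a start region or exons with a protein-coding gene, so that reads could be shared. Among 27 pairs of a member and an overlapping or adjacent coding gene, 16 had both genes tested. The coding gene was lower in 8 of the 16, higher in 6 and not called in 2, beside 38.1% lower and 38.5% higher over all genes tested. SNHG3 and RCC1, the exchange factor of the GTPase Ran, start 37 bp apart on the same strand and share 242 bp of exon. RCC1 fell from 89.5 ± 4.73 to 41.0 ± 2.16 CPM (log2FC -1.13, SE 0.06), while SNHG3 was higher. SNHG4 and MATR3 start 350 bp apart on the same strand and share 626 bp of exon. MATR3 was not called (log2FC -0.11, SE 0.07), while SNHG4 was lower. SIL1, on the strand opposite SNHG4 with 118 bp of shared exon, fell by 0.59 (SE 0.06). ZNFX1, opposite ZFAS1 with 249 bp of shared exon, was at 52.0 and 54.7 CPM and was not called (log2FC 0.07, adjusted p 0.30). EPB41L4A rose by 0.51 (SE 0.08) opposite EPB41L4A-AS1, with 1659 bp of exon in common.

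GAS5 and ZBTB37 start 800 bp apart on opposite strands. ZBTB37 rose by 1.16 (SE 0.17) from 66.1 to 148 CPM, and no exon is shared. TRNAU1AP, which meets SNHG12 over 8 bp, fell by 1.09 (SE 0.07). AC015802.6, on the strand opposite SNHG16, fell by 1.25 (SE 0.17) from 2.56 CPM. All of its 1639 bp of overlap is exonic in both, and whether counting used the strand is not given in the sources used here, so its reads and those of SNHG16 may not be separate. For 20 of the 23 tested members the deposited count was not whole in at least 1 library, as RSEM gives where reads match more than 1 gene. For SNHG5, SNHG12 and SNHG19 every count was whole.

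**Figure D4:**
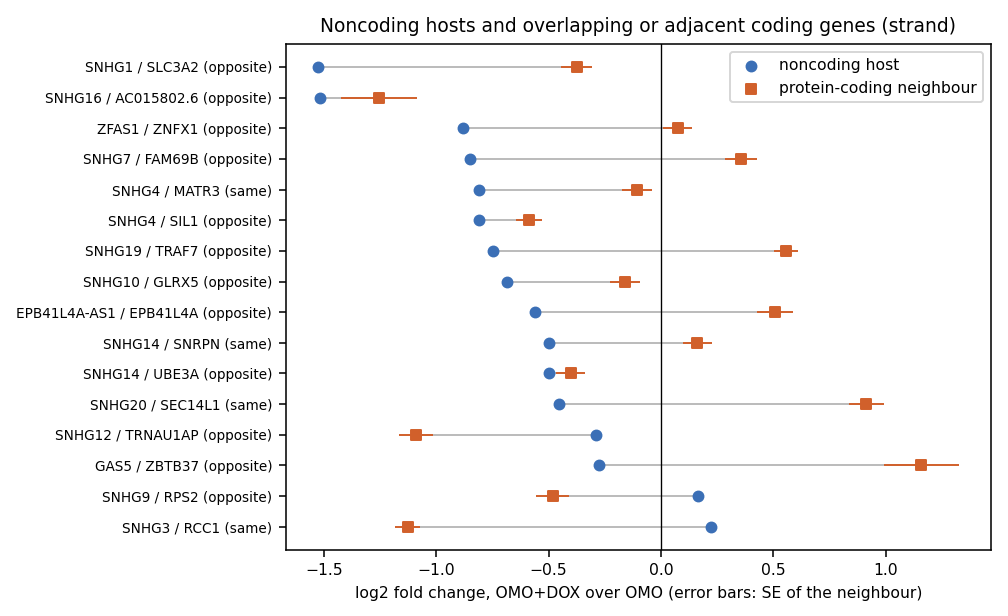
log2FC (DOX over untreated) of noncoding hosts (blue circles) and of the protein-coding genes that overlap them or start near them (orange squares, bars are SE), 1 line per pair, with the strand of the neighbour relative to the host in brackets. The 2 genes of a pair lie on opposite sides of 0 in several lines, among them SNHG3 and RCC1 at 0.22 and -1.13.

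The snoRNA rows themselves held almost no reads. Of 136 snoRNA genes within the members, 98 had no count in any library and 10 exceeded 3 counts in some library. The highest was 76.7 counts, for RF00099 in SNHG1, a snoRNA predicted from the Rfam family of that number. It had 50.4, 76.7, 50.7 and 53.7 counts without and 14.5, 19.4, 19.9 and 21.0 counts with DOX, and the host fell too. SNORD22, also in SNHG1, had 14.01, 24.85, 9.05 and 20.22 counts without and 7.97, 16.11, 7.38 and 25.86 with DOX. The groups of SNORD22 thus overlapped. Both rows overlap an exon of an SNHG1 transcript, and their reads cannot be told apart from those of the host. SNORA71B, in an intron of SNHG17, had 19 to 21 counts without and 25 to 29 with DOX. SNORA73B, in an intron of SNHG3, had 21 to 37 counts without and 23 to 34 with DOX. SNORD1A, SNORD25 and SNORA13 had 0 counts in all 8 libraries. From polyA+ RNA this says nothing about the levels of the snoRNAs.

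Sequence at the starts was read to see what these genes share. A start was called pyrimidine when an annotated GENCODE 29 transcript began with C followed by at least 4 C or T letters. It was found in 14 of the 28 members and 13 of the 23 tested (56.5%), beside 16.3% of all genes tested, 7.16% of tested genes that are not protein-coding and 84.4% of the ribosomal protein genes. Genes with more transcripts have more chances to match, and tested members had a median of 8 transcripts, against 7 over all genes tested and only 2 over tested genes that are not protein-coding. Of the 13 tested members with such a start 11 were lower and 1 higher (median log2FC -0.61). Of the 10 without, 8 were lower and 1 higher (median -0.53). Over all genes tested 38.1% were called lower and 38.5% higher. The first 30 bases are given for 5 members with such a start, with the pyrimidine run in capitals.
SNHG16, chr17:76557769-76557798 (+): CTTTTCgaggtcggccgcgtggctggaaga
GAS5, chr1:173867960-173867989 (-): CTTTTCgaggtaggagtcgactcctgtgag
SNHG19, chr16:2155329-2155358 (-): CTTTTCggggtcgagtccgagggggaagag
SNHG5, chr6:85678704-85678733 (-): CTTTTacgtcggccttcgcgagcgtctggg
ZFAS1, chr20:49278642-49278671 (+): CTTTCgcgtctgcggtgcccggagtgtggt
SNHG16, which fell by 1.52 on the log2 scale, and GAS5, which fell by 0.27, both begin with the run CTTTTC. Any pyrimidine start, not only the one printed, was counted in 2 of 8 transcripts of SNHG16 and 6 of 29 of GAS5. For the others it was 1 of 1 of SNHG19, 3 of 23 of SNHG5 and 3 of 10 of ZFAS1.

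The canonical E-box CACGTG, the letters that MYC and its partner MAX bind best and the same on both strands, was searched in RefSeq windows from 250 bases before to 50 after the gene start, on GRCh38. A window was given for 23 of the 28 members. The motif was in 1 of them (4.35%), beside 7.26% of all 35116 windows. The match lay 122 bases before the start of SNHG7, shown here with its surroundings and the motif in capitals.
SNHG7, chr9:136728261-136728346 (-): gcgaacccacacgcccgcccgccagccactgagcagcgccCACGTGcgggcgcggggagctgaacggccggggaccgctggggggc
A match is a description of letters and no evidence of binding, and its absence in a window says nothing about MYC at that gene.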

How the data were processed

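PolyA+ RNA of 4 OMO and 4 OMO+DOX libraries was sequenced as paired reads with a stranded kit. Per the submitters' processing notes and methods, the authors used Trim Galore for trimming, STAR for alignment to GRCh38 with GENCODE 32, and RSEM for quantification. Whether counting used the strand is not given in the sources used here. The deposited values are expected counts per gene, which are not normalized and divide reads that match several genes. Groups were taken from the sample titles.

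The expected counts were first rounded. Genes above 1 CPM in at least 4 of 8 libraries were tested in 1 fit over all 8 libraries without covariates (edgeR 4.0.16, R 4.3.3, TMM, quasi-likelihood test, Benjamini-Hochberg adjustment over all genes tested, two-sided). The SE is the absolute log2FC over the square root of F. DESeq2 1.42.0 was an alternative. The fit was tested on simulated counts with known changes. Symbols, types, transcripts and coordinates come from GENCODE 29, which holds 58561 of the 60668 identifiers. A host holds a snoRNA gene on its own strand within its span, and a neighbour overlaps a member or starts within 2 kb. One neighbour of a member is left out of the pairs and not reported here.

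Every member is described. Values per library are given for members past an adjusted p of 0.05 with an absolute log2FC above 1 and for GAS5, ZFAS1 and EPB41L4A-AS1, to which SNHG14, SNHG22 and CCDC26 were added after their values were seen. From each list up to 3 genes with the largest rise and fall are named. DANCR, PWAR5, TAF1D, LRRC75A-AS1 and LINC02001 and the neighbours MATR3 and SIL1 were also added later. The members and lists were chosen with earlier results of these data known. Same-numbered replicates were not treated as pairs.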

Additional observations from a re-analysis of the deposited data

Results flagged for a closer look

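Each tested member was checked in each group of 4 libraries for a library far from the other 3 by Dixon's test, 46 groups in all, of which chance alone flags about 1 in 20. In 5 groups 1 library stood apart, and in 4 of the 5 it was untreated replicate 3. GAS5 was at 1435 CPM there, against 1205 to 1236 CPM in the other untreated libraries. ZFAS1 was at 305 CPM, against 256 to 261 CPM, and SNHG8 at 136 CPM, against 113 to 116 CPM. SNHG14 went the other way, at 228 CPM against 314 to 329 CPM. SNHG21 was at 1.93 CPM in DOX replicate 1, against 2.87 to 2.94 CPM in the other DOX libraries. The cause was not tested.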

How the results depend on the processing

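Over 19 alternatives the count of members called lower lay between 18 and 22 and that called higher between 2 and 3, against 19 and 2. The number of genes tested differed between them. The 22 is of 26 tested genes, after SNHG29 to SNHG32 were added, and the fit without a filter called 20 lower in a larger set. With each library left out in turn the counts were 18 to 19 lower and 2 to 3 higher. The alternatives were DESeq2's size factors, library size only, the likelihood ratio test, DESeq2's Wald test, 2 other filters, an adjusted p below 0.01, each library left out, and members without GENCODE 29 snoRNAs removed. Those chosen after seeing the data were the class of GAS5, SNHG28 without DOX replicate 1, the addition of SNHG29 to SNHG32 (22 lower), members above 1 CPM in all 8 libraries, and coding hosts of a named snoRNA, where those called higher went from 75 to 39. Among 345 values of single members, none changed sign, 4 lost the call (SNHG15) and 2 gained one (SNHG9). Whether replicate numbers pair the samples cannot be settled with so few libraries. The correlations of same-numbered deviations ran from -0.18 to 0.24 (mean 0.09), and those of other pairs from -0.29 to 0.35 (mean -0.03). Of the 4 untreated libraries 1 correlated best with its own number. The fit with the replicate number as a block called 19 lower and 2 higher. Depth limits the 5 members under the filter and SNHG25, which had 20 to 70 counts per library.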
